A study of Mus musculus with 6 samples.

Results

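The multidomain members of the BCL2 family were followed in tissue from behind the forelimb bud of mouse embryos at embryonic day 9.5, in 3 Fkbp8 mutants (arrays a, b and c) and 3 wildtypes (arrays d, e and f). Members were taken from a list of 9 genes. A probe was counted where its 1 symbol, from the probe annotation, RefSeq or the array's own description, was listed. Probes with several symbols (204) or none (12058) were not counted. This gave 8 of the 9 genes, each with 1 probe, among 18989 genes named by the array's 34967 gene probes: the guardians Bcl2, Bcl2l2, Mcl1 and Bcl2l10, the effectors Bax, Bak1 and Bok, and Bcl2l13. No probe with 1 symbol carried the name of the remaining guardian, Bcl2l1, which is not analysed here. Both groups came from intercrosses of heterozygous carriers, and the labels give neither the strain nor the kind of mutation. The source label of mutant a speaks of embryos in the plural and the labels of the other arrays of a single embryo. The labels do not say whether the samples came from separate litters, so p-values cover no more than the spread among the 6 samples.

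BCL2 family proteins decide at the outer mitochondrial membrane whether a cell survives. Guardians such as BCL2, BCL-W (the product of Bcl2l2) and MCL1 hold the effectors BAX and BAK in check. BH3-only proteins occupy the guardians or engage the effectors, which then permeabilise the membrane and release cytochrome c to activate caspases. FKBP8 (also called FKBP38) is anchored in that membrane and binds BCL2, and by its title the series asks how Fkbp8 restrains cell death and sets dorsoventral pattern in the posterior neural tube. Arrays report transcripts, so protein amount, binding and location were not measured.

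The probe of Fkbp8 was above background, as marked by the scanner software, on 0 of 3 mutant and 3 of 3 wildtype arrays and was at least 18.8-fold lower in mutants (limma adjusted p = 1.18e-07). Posterior Hox and Cdx genes (7 of 7 tested) and somite genes (6 of 6) were measured in both groups, whereas the forebrain gene Otx2 was above background on no array. Log2 fold changes were negative for 6 of the 7 posterior genes and for 4 of the 6 somite genes, and 0 passed the threshold used below. For the 6 posterior genes usable on all arrays, the log2 of the summed intensity was 12.84 to 12.99 in mutants and 13.02 to 13.14 in wildtypes. Erythroid markers were above background in both groups, and 3 of them were saturated on at least 1 array. Log2 fold changes were positive for 11366 of all 21688 probes tested and for 12 of 13 erythroid probes with no saturated or missing spot. Their mean log2 intensity was 10.35 ± 0.12 in mutants and 10.10 ± 0.22 in wildtypes (SD, n = 3 each), and the groups overlapped. The log2 of the summed intensity of neural progenitor markers was 11.43 to 11.69 in mutants and 11.81 to 11.87 in wildtypes. That sum includes Pax6, and a sum without Pax6 was not run. Log2 fold changes were negative for 6 of these 7 genes and positive for 1 (Nes, 0.16). Pax6 was the 1 of the 7 that passed the threshold used below, at -1.15 (limma adjusted p = 0.00287). Sox2 did not pass, at -0.5 (adjusted p = 0.356), though its groups did not overlap. In such tissue, fewer cells of a type and less RNA per cell cannot be told apart. Y-linked Eif2s3y was above background on all 3 mutant and on 0 of 3 wildtype arrays and Xist on 0 of 3 mutant and all 3 wildtype arrays, so genotype and sex-linked expression cannot be told apart for any value below.

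No transcript of the family passed the test for a difference between the genotypes. Of the 8 member probes, 7 passed the filter on dim probes, and 0 of them rose or fell at an adjusted p of 0.05 (limma, with the Benjamini-Hochberg method applied to 21688 probes), against 0.12% of all probes (0.0646% higher and 0.0553% lower). At an unadjusted p under 0.05 there were 3, with Bak1 and Bcl2l2 higher and Mcl1 lower in mutants, against 12.2% of all probes (6.43% higher and 5.81% lower). The groups did not overlap for the same 3 probes, against 19.7% of all probes (11.2% higher and 8.56% lower). The median log2 fold change was 0.08 over the 7 probes and 0.01 over all probes tested, and the median size without sign was 0.23 and 0.09. The 3 with an unadjusted p under 0.05 became 1 with median centring and 1 without wildtype d. They became 2 in the deposited values, without mutant b, wildtype e or wildtype f, and with the mean of the erythroid markers as a covariate. These shares describe the members and were not tested against other genes.

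Bcl2, which encodes a guardian that FKBP8 binds, showed no separation by genotype. Its log2 intensity was 7.69, 8.01 and 7.82 in mutants a, b and c, and 7.87, 7.94 and 7.84 in wildtypes d, e and f. The lowest and the highest of the 6 values both lay among the mutants. The log2 fold change was -0.04 (SE 0.10, limma adjusted p = 0.884), with a 95% confidence interval of -0.26 to 0.18, not adjusted for the number of probes. Without mutant a the estimate was 0.03, so the data give Bcl2 no direction.

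Bcl2l2, which encodes BCL-W, was higher in mutants on the same scale. Its log2 intensity was 9.07, 9.27 and 8.98 in mutants, against 8.78, 8.96 and 8.79 in wildtypes. Mutant c and wildtype e were nearly level, with a gap of 0.02 between the groups. The log2 fold change of 0.27 (SE 0.10, interval 0.04 to 0.49) did not pass (limma adjusted p = 0.344, 0.276 to 0.741 over the alternatives). In the deposited values, which are multiples of each array's median, the probe read 8.13, 9.09 and 7.06 in mutants and 6.23, 7.21 and 6.17 in wildtypes, and there the groups overlapped.

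Mcl1, a short-lived guardian needed by many embryonic cells, was the member with the lowest log2 fold change. The 3 mutants read 10.39, 10.28 and 10.31 in log2 intensity, against 10.56, 10.65 and 10.46 in wildtypes. All 3 mutants lay below all 3 wildtypes, by 0.07 at the narrowest point. The log2 fold change was -0.23 (SE 0.08, interval -0.41 to -0.05) and did not pass (limma adjusted p = 0.324, 0.259 to 0.74 over the alternatives). The deposited values of 21.9, 19.4 and 19.5 in mutants and 23.5, 25.3 and 21.3 in wildtypes overlapped.

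Bcl2l10, a BCL2 homologue known from the ovary and egg, was close to background. Its probe was above background on 1 of 3 mutant arrays (b) and on 0 of 3 wildtype arrays, and it did not pass the filter. Its log2 intensity was 6.26, 6.51 and 6.19 in mutants and 6.09, 6.26 and 6.36 in wildtypes. The groups overlapped, and with no filter on dim probes (34756 probes) the difference in log2 intensity was 0.08 (SE 0.11, limma adjusted p = 0.86). No fold is read at this level. A probe at background does not show that a gene is silent, since the probe of Cycs, the cytochrome c gene that respiring cells need, was above background on no array either.

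**Figure D1:**
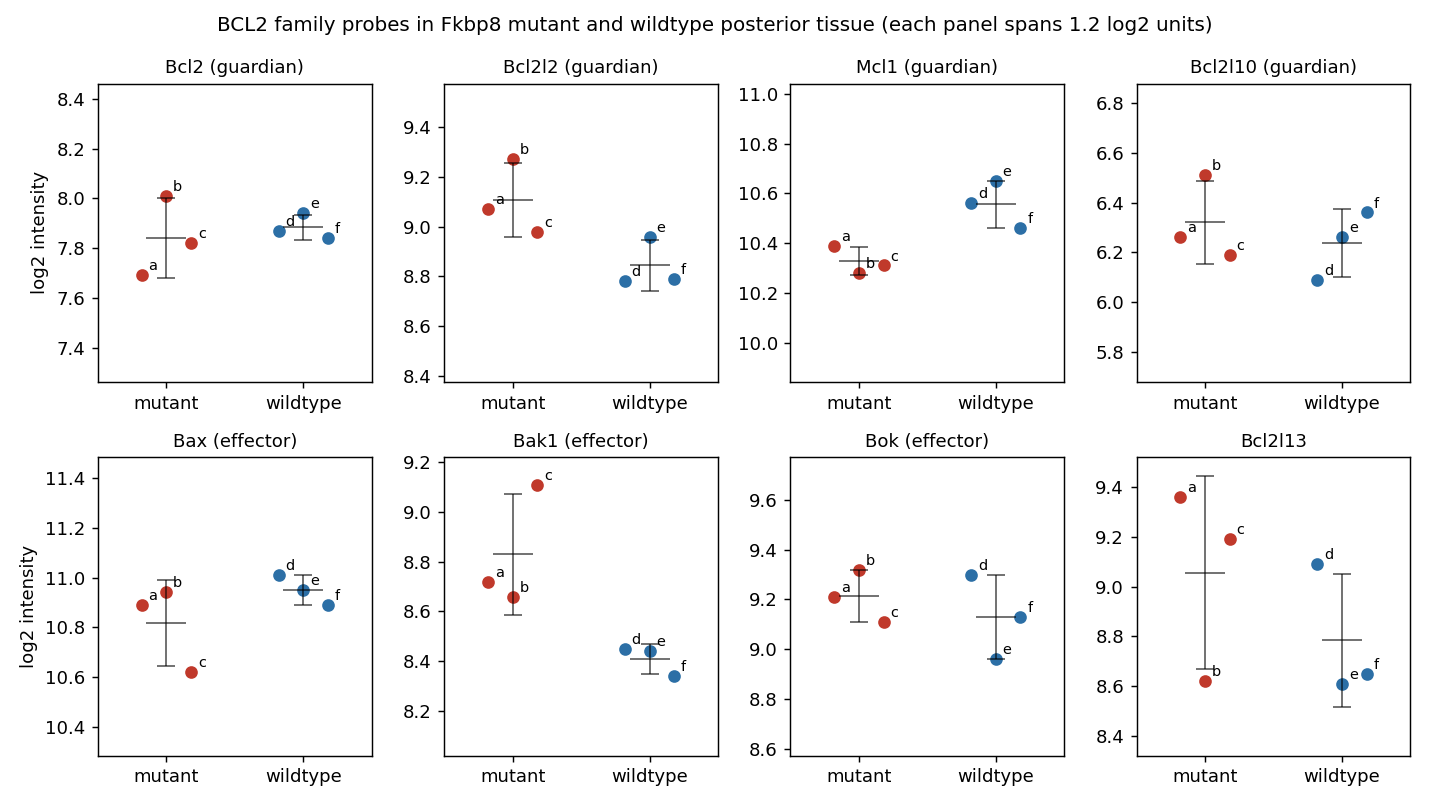
Log2 intensity of the 8 member probes on each array, with mutants (a, b, c, red) left of wildtypes (d, e, f, blue), and bars for the mean and SD (n = 3). All panels have the same height in log2 units, and their offsets differ because levels of different probes cannot be compared. The groups separate for Bcl2l2, Mcl1 and Bak1 and overlap in the other panels, and Bcl2l13 has the widest scatter.

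Among the effectors, Bak1 had the largest change of the 7 tested members and Bax overlapped between the groups. Bak1 encodes BAK, which sits in the outer mitochondrial membrane of healthy cells. Its log2 intensity was 8.72, 8.66 and 9.11 in mutants, against 8.45, 8.44 and 8.34 in wildtypes. The 3 mutants lay above the 3 wildtypes by at least 0.21, and mutant c stood highest. The log2 fold change was 0.42 (SE 0.12, interval 0.15 to 0.70), or 1.34-fold, and did not pass (limma adjusted p = 0.264). Permuting the genotype labels over the 6 arrays gave an exact two-sided p = 0.1, below which 3 against 3 cannot go. Without mutant c, the array with the lowest median signal, the log2 fold change was 0.28 (SE 0.08, adjusted p = 0.267).

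The separation of Bak1 was seen in each of 7 ways of correcting and scaling the 6 arrays. For Bcl2l2 and Mcl1 it was seen in 5 of the 7 and was absent with median centring and in the deposited values. Bak1 also kept a deposited value above every wildtype array, at 6.15, 5.65 and 7.84 in mutants and 4.74, 4.72 and 4.31 in wildtypes. With the erythroid mean as a covariate the log2 fold changes were 0.48 for Bak1 (SE 0.16, limma adjusted p = 0.604), 0.21 for Bcl2l2 (SE 0.13, adjusted p = 0.723) and -0.29 for Mcl1 (SE 0.10, adjusted p = 0.607). With the 13 unsaturated probes alone in the covariate, a choice made after seeing the data, they were 0.49, 0.20 and -0.29 in the same order of genes. Any part of the lower summed signal of the neural progenitor or posterior markers in these values was not tested.

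Bax encodes the effector that moves to mitochondria when a cell is stressed. On the log2 scale it read 10.89, 10.94 and 10.62 in mutants and 11.01, 10.95 and 10.89 in wildtypes. Mutant c was the lowest array for Bax and the highest for Bak1. The log2 fold change of Bax was -0.13 (SE 0.10, interval -0.36 to 0.09, limma adjusted p = 0.617). Without mutant c it was -0.03 (adjusted p = 0.896).

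Bok, a BAX-like effector held in check by protein turnover more than by guardians, had a log2 intensity of 9.21, 9.32 and 9.11 in mutants and 9.30, 8.96 and 9.13 in wildtypes. The groups overlapped, and the log2 fold change was 0.08 (SE 0.10, interval -0.15 to 0.32, limma adjusted p = 0.776).

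Bcl2l13 encodes a large outer membrane protein with BCL2 homology domains that is also known as a mitophagy receptor, and it is counted here with neither side. Its log2 intensity was 9.36, 8.62 and 9.19 in mutants and 9.09, 8.61 and 8.65 in wildtypes. Mutants a and c and wildtype d were high, while mutant b and wildtypes e and f were low, so the values fell into sets that cut across genotype. The SD was 0.39 in mutants and 0.27 in wildtypes, where the median SD over all probes tested was 0.11 and 0.09. The log2 fold change was 0.28 (SE 0.20, interval -0.17 to 0.73, limma adjusted p = 0.597). It was 0.12 without mutant a and 0.49 without mutant b.

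The stretches of 250 bases before the transcription start are shown for the 3 members whose groups did not overlap, chosen after the values were seen, so that the sequence upstream of each can be read beside its values. They come from RefSeq (GRCm38.p6) at chr17:27028628-27028877 (minus strand), chr14:54883175-54883424 (plus strand) and chr3:95658471-95658720 (plus strand), written 5′ to 3′ along the gene. Capitals mark a GC box, GGGCGG or its reverse complement CCGCCC.
Bak1: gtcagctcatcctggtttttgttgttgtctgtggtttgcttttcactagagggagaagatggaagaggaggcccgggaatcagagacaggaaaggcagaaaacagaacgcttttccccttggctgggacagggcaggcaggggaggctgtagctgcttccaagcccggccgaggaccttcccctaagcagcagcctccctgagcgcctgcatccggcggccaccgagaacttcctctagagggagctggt
Bcl2l2: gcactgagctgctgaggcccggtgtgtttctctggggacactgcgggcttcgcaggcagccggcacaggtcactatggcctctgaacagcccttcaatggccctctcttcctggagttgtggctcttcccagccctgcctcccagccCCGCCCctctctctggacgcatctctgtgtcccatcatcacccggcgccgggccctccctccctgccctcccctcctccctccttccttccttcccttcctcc
Mcl1: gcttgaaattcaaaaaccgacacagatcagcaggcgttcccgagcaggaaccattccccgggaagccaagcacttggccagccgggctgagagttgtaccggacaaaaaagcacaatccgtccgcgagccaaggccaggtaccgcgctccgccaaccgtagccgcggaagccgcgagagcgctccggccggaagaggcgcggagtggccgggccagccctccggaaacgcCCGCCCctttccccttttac
A GC box was found 1 time each upstream of Bcl2l2 and Mcl1 and 0 times upstream of Bak1, and 32.7% of all 32851 promoter windows of this length held at least 1. Neither CCAAT (33.8% of windows, either strand) nor TATAAA (12.4%) was found in the 3 windows. The share of G and C was 58.4% for Bak1, 66.0% for Bcl2l2 and 64.4% for Mcl1, against a median of 52.4%. These matches describe letters and were not related to the changes. In the gene table of the same assembly, none of the 9 listed genes lies on the chromosome of Fkbp8 or on X or Y.

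The balance of guardians to effectors was read as a difference of log2 intensities on each array, set to the wildtype mean, since the level of 1 probe cannot be set against that of another. With Bcl2, Bcl2l2 and Mcl1 as guardians and Bax and Bak1 as effectors, it was -0.17, -0.03 and -0.24 in mutants a, b and c, and -0.07, 0.07 and 0.00 in wildtypes d, e and f. Mutants a and c lay below every wildtype, while mutant b lay within the wildtype range. The mean difference was -0.15 (SD 0.11 in mutants and 0.07 in wildtypes, n = 3 each). Bok was not among the effectors of the planned balance. The mean difference was -0.13 with Bok added to the effectors and -0.19 with Bcl2l13 added instead. A score over chosen members carries no test here.

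The components of the balance did not move alike. The guardian mean differed by 0.00 between mutants and wildtypes, as the higher Bcl2l2 and the lower Mcl1 offset each other. The effector mean was 0.13, 0.12 and 0.18 above the wildtype mean in the mutants, against 0.05, 0.02 and -0.07 in wildtypes, a mean difference of 0.15 without overlap in which the Bax estimate was negative and that of Bak1 positive. Of the 6 single pairs of a guardian and an effector, Mcl1 minus Bak1 gave the lowest difference at -0.65, with -0.49, -0.53 and -0.94 in mutants and -0.04, 0.06 and -0.03 in wildtypes. Bcl2l2 minus Bax gave the highest at 0.40, with 0.29, 0.44 and 0.47 in mutants and -0.12, 0.11 and 0.01 in wildtypes. The classical pair, Bcl2 minus Bax, overlapped, with -0.14, 0.14 and 0.27 in mutants and -0.07, 0.05 and 0.02 in wildtypes. The 3 other pairs differed by -0.47 (Bcl2 minus Bak1), -0.16 (Bcl2l2 minus Bak1) and -0.10 (Mcl1 minus Bax). Which guardian and which effector were paired thus set the sign of the difference. The pair values follow from those of the single genes given above and are no separate evidence.

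**Figure D2:**
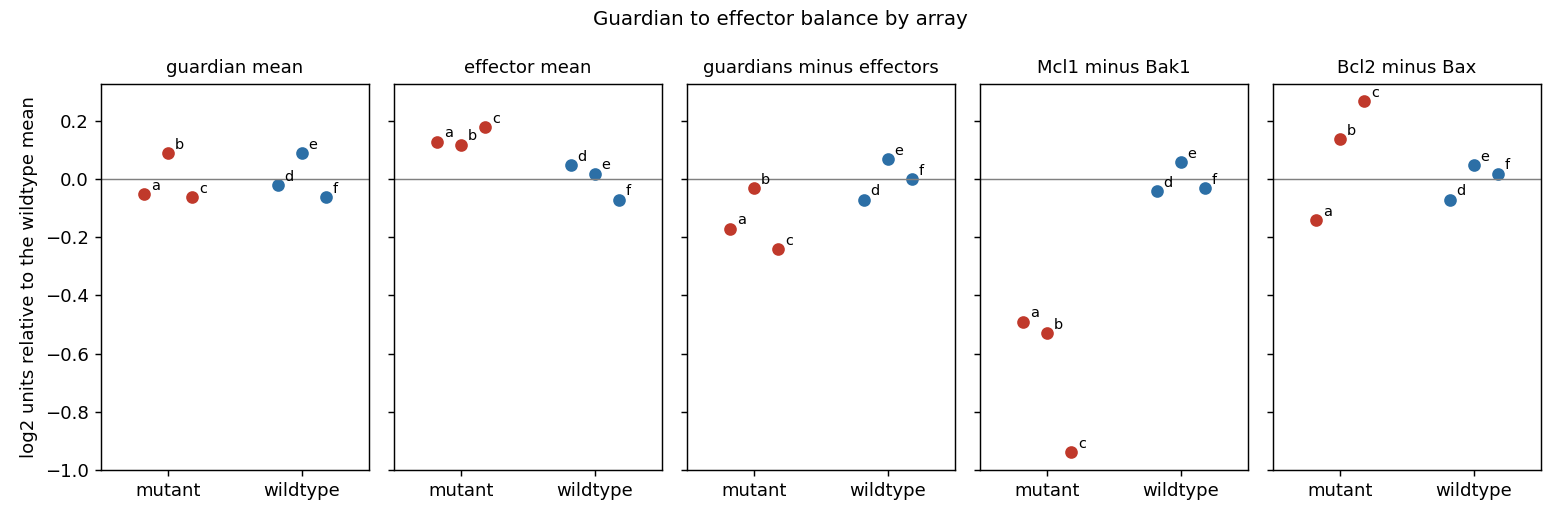
Guardian mean, effector mean, their difference and 2 single pairs on each array, in log2 units relative to the wildtype mean, with mutants (a, b, c, red) left of wildtypes (d, e, f, blue). Mcl1 minus Bak1 is the pair with the lowest mean difference (-0.65) and Bcl2 minus Bax the classical pair, which overlaps between the groups.

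The rest of the mitochondrial death pathway also stayed below the threshold. Of 9 tested BH3-only genes (11 listed), 0 passed in limma over all probes, with 3 higher and 1 lower at an unadjusted p under 0.05 and a median log2 fold change of 0.07. Over all probes, 6.43% were higher and 5.81% lower at that p, and the median log2 fold change was 0.01. Pmaip1, whose product NOXA binds MCL1, came closest at 8.31, 8.15 and 8.23 in mutants and 8.78, 8.67 and 8.90 in wildtypes (log2 fold change -0.55, SE 0.09, adjusted p = 0.106). Pmaip1 and Mcl1 were both lower in all 3 mutants than in every wildtype, as were 8.56% of all probes tested. For Mcl1 the groups overlapped with median centring and in the deposited values. Bik was higher at 7.11, 7.26 and 7.22 in mutants and 6.94, 6.87 and 6.88 in wildtypes (log2 fold change 0.30, SE 0.08, adjusted p = 0.239). Bbc3, which encodes PUMA, stood 0.25 higher (SE 0.07, adjusted p = 0.272).

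Of 3 further tested BCL2 homologues (6 listed), 0 passed in limma and 1 reached an unadjusted p under 0.05 (12.2% of all probes did). All 3 estimates were positive (median 0.22), as were 11366 of the 21688 over all probes tested (median 0.01). Bcl2l12 had the largest estimate, 0.44 (SE 0.13, adjusted p = 0.279), and Bcl2l15 and Bcl2l14 had 0.22 (SE 0.13) and 0.09 (SE 0.08). Of 11 tested genes of mitochondrial release and the apoptosome (14 listed), 0 passed, with 1 higher and 1 lower at an unadjusted p under 0.05 (12.2% of all probes; list median 0.02). Diablo, whose product SMAC relieves caspase inhibition, stood at -0.23 on the log2 scale (SE 0.08, adjusted p = 0.329), and the inhibitor of apoptosis genes Birc3 and Birc2 had 0.22 (SE 0.08) and 0.19 (SE 0.09). The probe of Apaf1 was above background on no array.

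No outer membrane partner or regulator passed either. Of 8 tested partners (11 listed), 0 passed in limma, with 1 higher and 1 lower at an unadjusted p under 0.05 (12.2% of all probes; list median 0.01). Mtch2, a membrane protein that recruits the BH3-only protein BID, was 0.30 higher (SE 0.07, adjusted p = 0.221), Dnm1l, the GTPase of mitochondrial fission, had -0.42 (SE 0.10, adjusted p = 0.231), and the channel gene Vdac1 had 0.13 (SE 0.09). Of 10 tested regulators (11 listed) 0 passed and 1 had an unadjusted p under 0.05 (12.2% of all probes; list median 0.05). This was Ddit3, the stress factor CHOP, at 0.39 (SE 0.12, adjusted p = 0.288), followed by the MCL1 ubiquitin ligase gene Huwe1 at 0.32 (SE 0.14) and Mycn at -0.23 (SE 0.12).

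**Figure D3:**
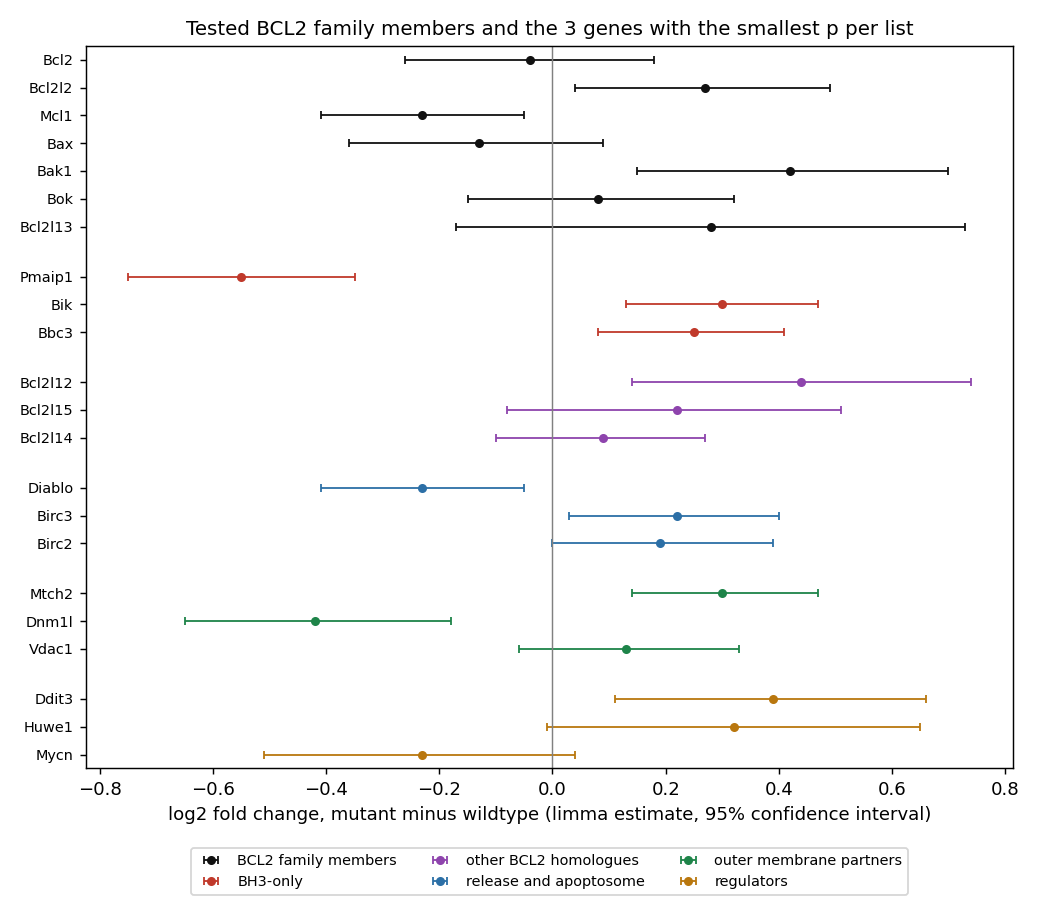
Log2 fold change, mutant minus wildtype, of the 7 tested family members (black, top) and of the 3 genes with the smallest p in each of 5 pathway lists, with 95% confidence intervals that are not adjusted for the number of probes. Pmaip1 at -0.55 lies farthest to the left and Bcl2l12 at 0.44 farthest to the right, and none of the genes shown passed an adjusted p of 0.05.

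Bak1, the member with the largest change, was also compared with 14862 probes of other named genes. Likeness was the root mean square distance between log2 profiles over the 6 arrays, each profile set to its own mean. The 5 nearest were Ddr2 (0.0674), Cdkn1a (0.0817), Bmerb1 (0.0843), Fhit (0.0874) and Prss50 (0.0905). Like Bak1, Ddr2 was highest in mutant c, with 8.01, 8.01 and 8.31 in mutants and 7.83, 7.77 and 7.75 in wildtypes, and so was the cell cycle inhibitor gene Cdkn1a, with 8.17, 8.07 and 8.42 in mutants and 7.84, 7.98 and 7.87 in wildtypes. These genes were picked for a profile close to that of Bak1, so the shared high value in mutant c is no separate result. Shared function or control was not tested.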

How the data were processed

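RNA from posterior tissue was measured on 6 CodeLink Mouse Whole Genome arrays, 1 colour each, and the groups came from the sample titles. Spots were quantified with CodeLink Expression Analysis as intensity, per the file headers, and the deposited series table equalled the scanner's normalized intensity exactly, a linear scale with a median of 1 per array. Background medians were 47 to 53, and 57.6% to 61.8% of gene probes were above background. Levels were corrected with normexp (offset 50), control spots were left out, contaminated, irregular and masked spots were treated as missing, and quantile normalization followed on the log2 scale. Probes that exceeded background on 3 or more arrays, and were usable on 2 or more arrays of each group, entered limma 3.58.1 (R 4.3.3), two-sided, with Benjamini-Hochberg adjustment. The fit was tested on simulated data whose changes were larger than those of the members, so that test does not cover changes of their size. The offset shrinks fold changes of dim probes. The 2 groups share no replicate letter and the labels give no batch. Probe names came from the platform annotation, updated by Entrez ID with the RefSeq table of GRCm38.p6, from RefSeq accessions or from the array file, and 22705 probes had 1 symbol. No source used here names the build behind the array.

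The members, gene lists and tests were chosen with earlier results of these data known. Named genes are all members, Fkbp8, up to 3 genes with the smallest p per list and the 5 genes nearest to the member with the largest change; other genes named stand for their list or the sample checks. The planned balance included Bcl2l1, which had no named probe. Alternatives were other background corrections, scalings, filters and variance models, the deposited values, leaving out each array or X and Y genes, and an erythroid covariate, with and without saturated markers. For the balance, Bok or Bcl2l13 was also added to the effectors.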

Additional observations from a re-analysis of the deposited data

How the results depend on the processing

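The count of 0 member probes past the threshold held in all 20 alternatives run, including an adjusted p under 0.1, and none of 126 refits of single members passed. Of these, 123 kept their direction. The exceptions were Bcl2, with a log2 fold change of 0.03 without mutant a, and Bok, with 0 without wildtype e and -0.01 with the unsaturated erythroid covariate, which was chosen after seeing the data. Bcl2 ranged from -0.13 to 0.03 and Bok from -0.01 to 0.17. The balance ranged from -0.21 to -0.10. Bak1 ranged from 0.28 to 0.50, Bcl2l2 from 0.18 to 0.33, Mcl1 from -0.29 to -0.16, Bax from -0.27 to -0.03 and Bcl2l13 from 0.12 to 0.49. The 3 members with an unadjusted p under 0.05 became 1 (Bak1) with median centring and 1 without wildtype d. They became 2 in the deposited values, without mutant b, wildtype e or wildtype f, and with either form of the erythroid covariate. Fkbp8 passed in every alternative run on it. Its probe, above background on the 3 wildtype arrays only, failed the filter and was not tested in some alternatives. These were the filter on all 6 arrays and leaving out wildtype d, e or f. The count over all probes, 26 in the reported setting (14 higher and 12 lower), was 16 with median centring, 13 with floored values, 15 with the deposited table, 16 with the filter on all 6 arrays, 14 without X and Y genes, 9 with the erythroid covariate, 8 with its unsaturated form, and 5 to 16 when 1 array was left out, where each omission lowered it by more than 1.5 times. The split moved too, with 7 higher and 9 lower with the filter on all 6 arrays, 6 and 8 without X and Y genes, 5 and 11 without mutant a, 1 and 4 without mutant b, 2 and 8 without mutant c, and 6 and 2 without wildtype f. No paired analysis was possible because the groups share no replicate letter. Each gene had 1 probe, so a mean over probes gives the same balance, and Bcl2l10 stayed out of it because its probe did not pass the filter. Array number and, for Bcl2l10, signal over background limit what can be seen.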

Other observations

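Of the list genes outside the naming rule, the mitophagy receptor gene Bnip3 was chosen here after its values were seen. Log2 intensities were 11.61, 11.45 and 11.64 in mutants, against 11.27, 11.13 and 11.36 in wildtypes, without overlap (log2 fold change 0.31, SE 0.09, limma adjusted p = 0.274). Its relative Bnip3l read 11.49, 11.33 and 11.22 in mutants and 11.45, 11.23 and 11.39 in wildtypes, with overlap (-0.01, SE 0.10, adjusted p = 0.977).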
